A study of Saccharomyces cerevisiae with 6 samples.

Results

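The genes of proline use and proline synthesis in budding yeast (Saccharomyces cerevisiae) are described here in a strain without GCR2 and in its wild-type comparison. They were 7 genes of 5449 tested: PUT1 (YLR142W), PUT2 (YHR037W), PUT3 (YKL015W) and PUT4 (YOR348C) on the side of use, and PRO1 (YDR300C), PRO2 (YOR323C) and PRO3 (YER023W) on the side of synthesis. Each member was taken by its symbol from probe sets annotated with exactly 1 gene, using the brightest where a gene had several. All 7 had 1 probe set of the S. cerevisiae gene, lay above background on all 6 arrays, and were tested. The rule names genes by their role and sets no threshold on a measured difference.

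The series holds 3 arrays of the wild-type, which the labels give as strain FY4, and 3 arrays of a Gcr2 deletion mutant, for which the labels give no strain. All cultures were batch cultures at 30 °C in minimal medium on glucose, sampled during exponential growth; no age, other allele or added agent is named for either group. The nitrogen source of the medium, the way the deletion was made and the number of clones are not given in the labels, nor is a separate culture for each replicate. Each p-value is therefore set against the variation among these arrays, part of which may be technical only.

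Yeast takes up proline and breaks it down in the mitochondrion to glutamate when better nitrogen sources are lacking. The permease Put4 brings proline in, the proline oxidase Put1 turns it into pyrroline carboxylate, and the dehydrogenase Put2 turns that into glutamate. Put3 is a zinc cluster activator that sits on the PUT1 and PUT2 promoters and activates them when proline is present. Synthesis runs from glutamate in the other direction, through the glutamate kinase Pro1, which proline inhibits, the reductase Pro2, and the pyrroline carboxylate reductase Pro3, which also receives pyrroline carboxylate made from arginine. Gcr2, the missing protein, works with Gcr1 as an activator of glycolytic gene transcription.

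Levels are given as log2 of the deposited probe-set intensity, and differences as deletion minus wild-type on that scale, with the standard error (SE) of limma. A gene was called at a limma adjusted p under 0.05, adjusted by Benjamini-Hochberg over the 5449 genes. GCR2 checked the labels: it read 11.09, 11.06 and 11.17 in wild-type, and in the deletion it was under background on all 3 arrays, at 4.69, 4.42 and 4.66. With the deletion arrays set at background, that is at least 27.5-fold lower, a bound with no test. The difference of the measured values was -6.52 (limma adjusted p = 1.01e-06). Of all tested genes, 22.5% passed, of which the higher ones made up 14.1% and the lower ones 8.35% of all tested genes, and the median difference was 0.02. The poly-A control probe sets, which read bacterial spike-in RNA added ahead of labelling, were lower by 0.88 in the deletion (8.22 ± 0.40 against 7.35 ± 0.24, SD, n = 3), so that centring on them raises every difference below by that amount. Centred that way, PUT1 stood at -0.74, PUT4 at -0.15 and PUT2 at 0.77. The falls of CAR2, GAP1, GLN3, GAT1, DAL3 and DAL7 given below changed sign. These values have no test, because the shift and its error are shared by all genes. The 18S ribosomal RNA probe sets were lower too, by 1.15 (14.10 ± 0.08 against 12.95 ± 0.15, SD, n = 3), with groups that did not overlap. All differences are stated relative to the bulk of the array, and the part of RNA preparation in them was not tested.

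The first steps of proline use fell and the first step of proline synthesis rose in the deletion. PUT1, the proline oxidase gene, was 3.07-fold lower, PUT4, the proline permease gene, was 2.04-fold lower, and PRO1, the glutamate kinase gene, was 1.44-fold higher, with 3 arrays per group. These were the 3 members called of 7, where 22.5% of all tested genes were called. Of the 4 PUT genes 2 were lower and 0 higher, and of the 3 PRO genes 1 was higher and 0 lower. Among all tested genes 8.35% were lower and 14.1% higher. The remaining 4 members, PUT2, PUT3, PRO2 and PRO3, differed by between -0.11 and 0.16 and did not pass the test.

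**Figure D1:**
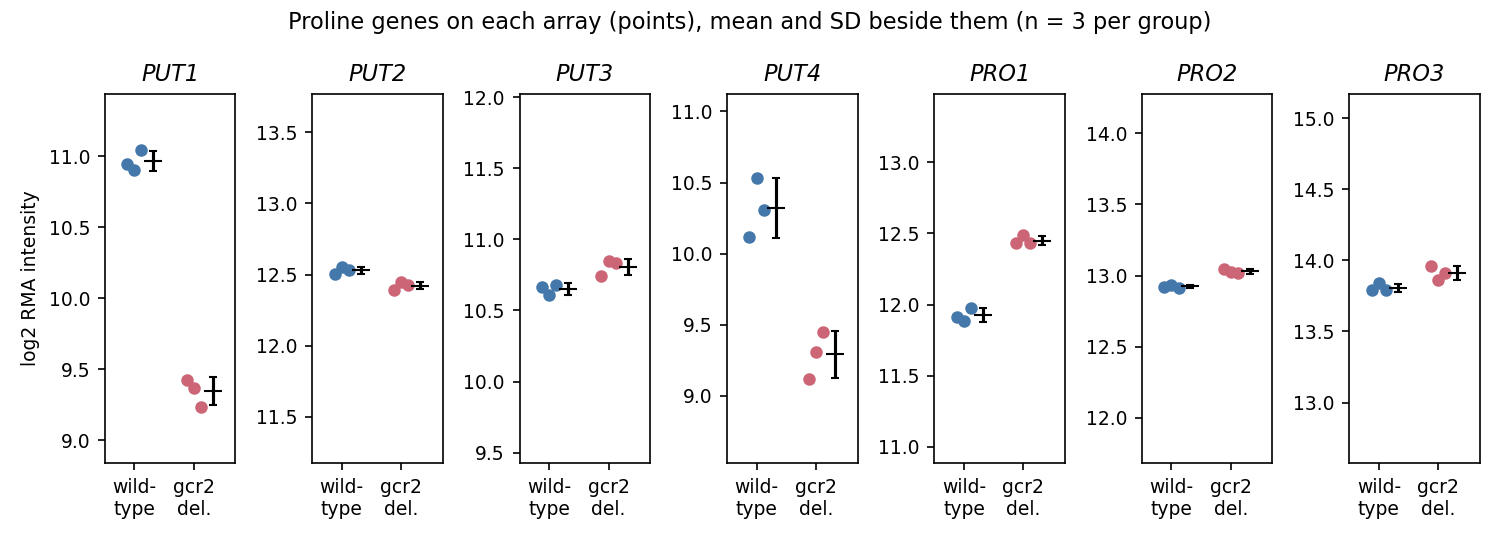
Log2 RMA intensity of the 7 proline genes on each array, wild-type in blue and gcr2 deletion in red; the black bars are mean and SD of 3 arrays, and every panel spans the same number of log2 units around its own centre. PUT1 and PUT4 sit far lower and PRO1 higher on the deletion arrays, and the other 4 genes shift by 0.16 or less.

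Among the genes that act on proline from outside the cell to glutamate, the permease came first. PUT4 read 10.11, 10.54 and 10.31 in wild-type and 9.12, 9.31 and 9.45 in the deletion. The groups did not overlap, and the highest deletion array stayed under the lowest wild-type array. PUT4 fell by 1.03 (SE 0.13, limma adjusted p = 0.0055), the widest spread among the members, with an SD of 0.21 in wild-type and 0.17 in the deletion. Its difference lay between -1.13 and -0.92 when any one array was left out. It ranked 27 among the 5449 genes by size of fall.

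PUT1 read 10.94, 10.90 and 11.04 in wild-type and 9.43, 9.37 and 9.24 in the deletion. On the linear scale the wild-type intensities were 1970, 1917 and 2109, and those of the deletion 689, 662 and 604. No deletion array came near the wild-type range, and the spread within each group (SD 0.07 and 0.10) was small beside the gap. PUT1 fell by 1.62 (SE 0.07, 95% interval -1.78 to -1.46, limma adjusted p = 0.00013). By size of fall it ranked 6 of all tested genes, a ranking in which the deleted GCR2 is 1.

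PUT2 acts directly after PUT1, and its values were much closer together. It read 12.50, 12.55 and 12.53 in wild-type and 12.39, 12.45 and 12.43 in the deletion. Every deletion array was lower than every wild-type array, by a small margin. The difference of -0.11 (SE 0.04, limma adjusted p = 0.095) did not pass, and its 95% interval for the single gene ran from -0.20 to -0.01, far from the value of PUT1. The 2 enzyme genes of proline use thus showed a 3.07-fold and a 1.08-fold lower level, of which only the first passed the test; the difference between them was not tested.

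PUT3, the activator gene of PUT1 and PUT2, had a difference of the opposite sign to that of PUT1. It read 10.66, 10.61 and 10.68 in wild-type and 10.74, 10.85 and 10.83 in the deletion, higher on all 3 deletion arrays. The difference of 0.16 (SE 0.05, limma adjusted p = 0.059) did not pass, and its 95% interval of 0.04 to 0.27 lay above 0. It was called with array weights (0.17, adjusted p = 0.027). An array gives the level of the PUT3 transcript and not the activity of its protein.

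On the side of synthesis, PRO1 codes for the committing step. It read 11.91, 11.88 and 11.98 in wild-type and 12.43, 12.49 and 12.43 in the deletion. The groups were well apart, since the lowest deletion array exceeded the highest wild-type array. PRO1 rose by 0.53 (SE 0.04, 95% interval 0.42 to 0.63, limma adjusted p = 0.0015). It ranked 169 by size of rise.

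PRO2, the next enzyme gene, read 12.92, 12.94 and 12.91 in wild-type and 13.05, 13.02 and 13.02 in the deletion. All deletion arrays were slightly higher. The difference of 0.10 (SE 0.04, limma adjusted p = 0.080) did not pass. It was called with a trended robust prior (adjusted p = 0.049) and with the unmoderated statistic (adjusted p = 0.015).

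PRO3 codes for the reductase that makes proline itself. It read 13.79, 13.84 and 13.79 in wild-type and 13.96, 13.86 and 13.91 in the deletion. The groups did not overlap, although deletion replicate 2 at 13.86 was close to wild-type replicate 2 at 13.84. The difference of 0.10 (SE 0.04, limma adjusted p = 0.13) did not pass. Groups that do not overlap were found for all 7 members, and for 45.2% of all tested genes.

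**Figure D2:**
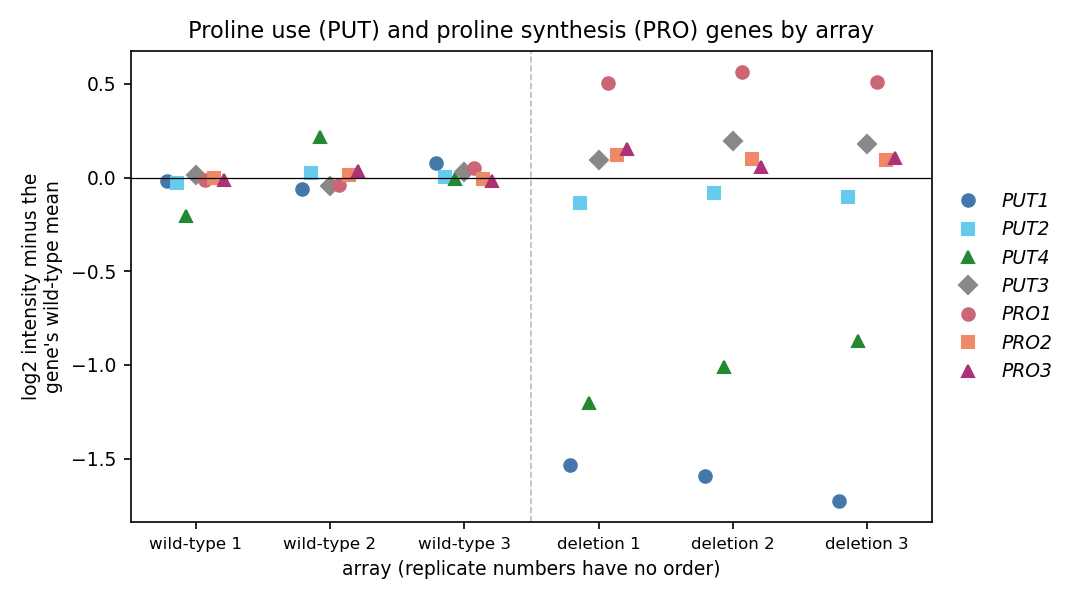
Log2 intensity of each proline gene minus its own wild-type mean, for each of the 6 arrays. On the deletion arrays PUT1 lies between -1.73 and -1.54, PUT4 between -1.20 and -0.87, and PRO1 between 0.51 and 0.56, while PUT2 stays below and PUT3, PRO2 and PRO3 above their wild-type means by at most 0.20.

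Set against each other, the genes of use and of synthesis lay further apart on every deletion array than on any wild-type array. For this, each gene was taken relative to its wild-type mean. The mean of the 3 PRO genes was then subtracted from the mean of PUT1, PUT2 and PUT4 within each array. The resulting value cancels a log2 shift shared by all genes of an array, but not a scaling that depends on intensity. It was -0.07, 0.06 and 0.02 in wild-type and -1.22, -1.13 and -1.14 in the deletion. With PUT3 counted among the PUT genes it was -0.96, -0.86 and -0.87 in the deletion. These values have no test, since they describe a score over chosen members. The wild-type values are centred by construction, and the score combines the differences of single genes given above, adding no separate result.

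PUT1, PUT4 and PRO1 had the largest parts in that gap. The PUT1 to PRO1 ratio alone dropped by 2.14 on the log2 scale. It was -2.04, -2.15 and -2.24 on the deletion arrays (SD 0.10, n = 3) against -0.01, -0.02 and 0.03 in wild-type (SD 0.02, n = 3). The PUT2 to PRO2 ratio, which sets the later enzyme of use against the middle enzyme of synthesis, dropped by 0.21 (SD 0.04 in the deletion and 0.02 in wild-type, n = 3 each). It was -0.26, -0.18 and -0.20 on the deletion arrays.

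**Figure D3:**
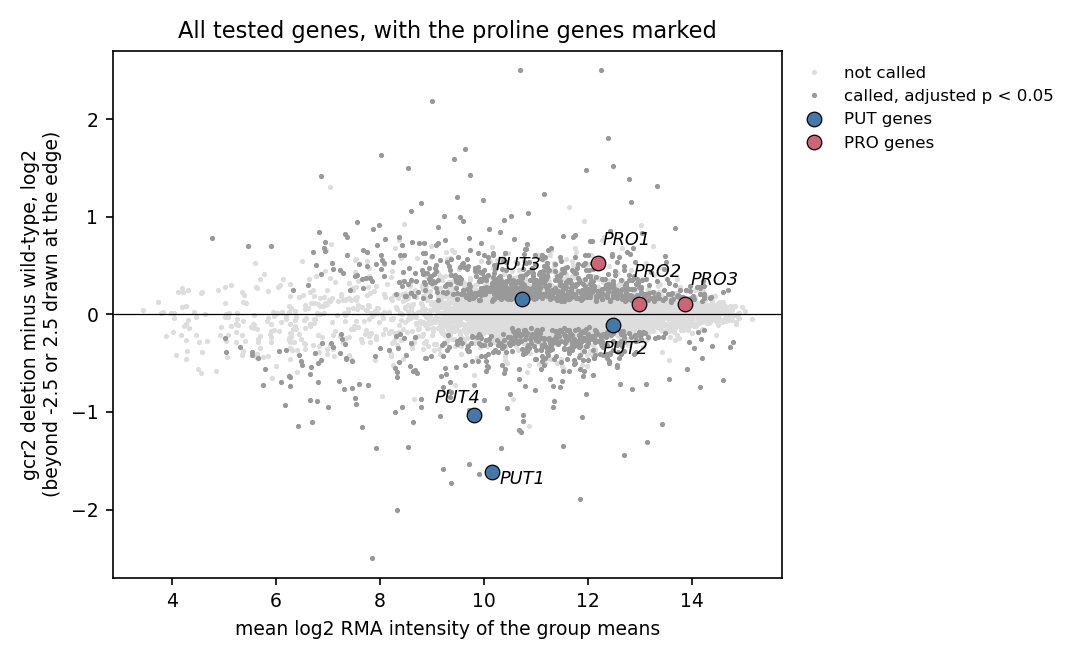
Difference between gcr2 deletion and wild-type (vertical axis, log2) against mean log2 intensity (horizontal axis) for the 5449 tested genes, called genes in dark grey and the proline genes in colour. PUT1 at -1.62 and PUT4 at -1.03 lie at the lower edge of the cloud, PRO1 at 0.53 lies in its upper part, and the other 4 members lie within its centre.

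Arginine breakdown meets proline metabolism at pyrroline carboxylate, and 1 of its genes fell. CAR2, the ornithine aminotransferase gene whose product leads to pyrroline carboxylate, read 10.33, 10.37 and 10.14 in wild-type and 9.80, 9.75 and 9.86 in the deletion. It fell by 0.48 (SE 0.07, limma adjusted p = 0.0096), with groups well apart. CAR1, the arginase gene, differed by -0.22 (SE 0.08, limma adjusted p = 0.095) and did not pass. Of these 2 genes 1 was therefore lower and 0 higher, where 8.35% of all tested genes were lower and 14.1% higher.

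Other permeases that can carry proline went in different directions. GAP1, the general amino acid permease gene, read 14.19, 14.21 and 14.25 in wild-type and 13.84, 13.89 and 13.89 in the deletion, and fell by 0.34 (SE 0.04, limma adjusted p = 0.0045). AGP1, for a permease of broad specificity, read 9.64, 9.63 and 9.44 and then 10.22, 10.08 and 10.28, and rose by 0.62 (SE 0.08, limma adjusted p = 0.0054). GNP1, the glutamine permease gene, differed by -0.04 and was not called (interval -0.16 to 0.09). Of the 4 permease genes for proline, PUT4 included, 2 thus fell and 1 rose, with PUT4 at the largest of the 4 differences. Over all tested genes 8.35% were lower and 14.1% higher.

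Glutamate is the product of the PUT route and the start of the PRO route. Of 5 genes of glutamate and glutamine metabolism 1 was higher, 0 were lower and 4 were not called, a share near the 22.5% called of all genes, with a list median of 0.08 beside 0.02. GDH3, a glutamate dehydrogenase gene, rose by 0.52 (SE 0.08, limma adjusted p = 0.0091), from 9.34, 9.39 and 9.20 to 9.83, 9.71 and 9.95, and 1 of 16 alternatives did not call it. Its close paralog GDH1, the main enzyme of glutamate synthesis from ammonium, differed by 0.08 and was not called; whether GDH1 transcripts add to the signal of the GDH3 probe set was not tested. GDH2, for the dehydrogenase that releases ammonium, GLT1, glutamate synthase, and GLN1, glutamine synthetase, differed by 0.07, 0.10 and 0.03.

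Arginine synthesis starts from glutamate beside the PRO route and its genes differed little between the groups. Of 6 tested genes 1 was higher, 0 were lower and 5 were not called, again near the share of all genes, and the list's differences ran from -0.19 to 0.16 with a median of -0.04. ARG1, argininosuccinate synthase, was the gene called, up by 0.16 (limma adjusted p = 0.038), and 10 of 16 alternatives did not call it. ARG2, for the enzyme that acetylates glutamate at the entry of that route, differed by -0.19 and was not called. ARG8, ARG7, ARG3 and ARG4, for later steps, differed by -0.02, -0.07, 0.06 and -0.10.

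PUT1, PUT2 and PUT4 are under nitrogen catabolite repression. In it the GATA factors Gln3 and Gat1 activate, Dal80 and Gzf3 repress, and Ure2 holds Gln3 back on good nitrogen sources. Of these 5 regulator genes 3 were lower, 0 higher and 2 not called, where 8.35% of all genes were lower. DAL80, the repressor gene, fell by 1.61, from 10.83, 11.03 and 10.82 to 9.31, 9.34 and 9.19 (SE 0.07, limma adjusted p = 0.00022). GAT1 fell by 0.42 (SE 0.06, limma adjusted p = 0.0096). GLN3 fell by 0.18 (limma adjusted p = 0.030), and 9 of 16 alternatives did not call it. GZF3 differed by 0.02 and URE2 by -0.03, and neither was called.

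A list of 19 genes repressed by good nitrogen sources left out the PUT genes but shared GAP1, AGP1, CAR1, CAR2 and GLN1 with earlier lists. Of the 19 genes, 7 were lower, 5 higher and 7 not called, with a median difference of -0.14. Those with the smallest adjusted p were DAL4, the allantoin permease gene, lower by 1.37, DAL5, the allantoate permease gene, lower by 1.35, DAL1, the allantoinase gene, lower by 0.95, and GAP1. The 5 that rose, named after their values were seen, were AGP1, MEP1, an ammonium permease gene (0.35), UGA1 and UGA4, for an enzyme and a permease of gamma-aminobutyrate use (0.43 and 0.35), and OPT2 (0.84), for an oligopeptide transporter family member above background on 2 of 3 wild-type arrays. The calls of UGA4 and OPT2 were lost in 5 and 4 of 16 alternatives and that of MEP1 in 1. Together the 6 related lists held 35 tested genes, of which 10 were lower and 7 higher, against 8.35% and 14.1% of all genes. In place of those 17 calls there were 10 without wild-type replicate 3 and deletion replicate 1, the arrays farthest out along the first principal component, where 6.02% of all genes were called.

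**Figure D4:**
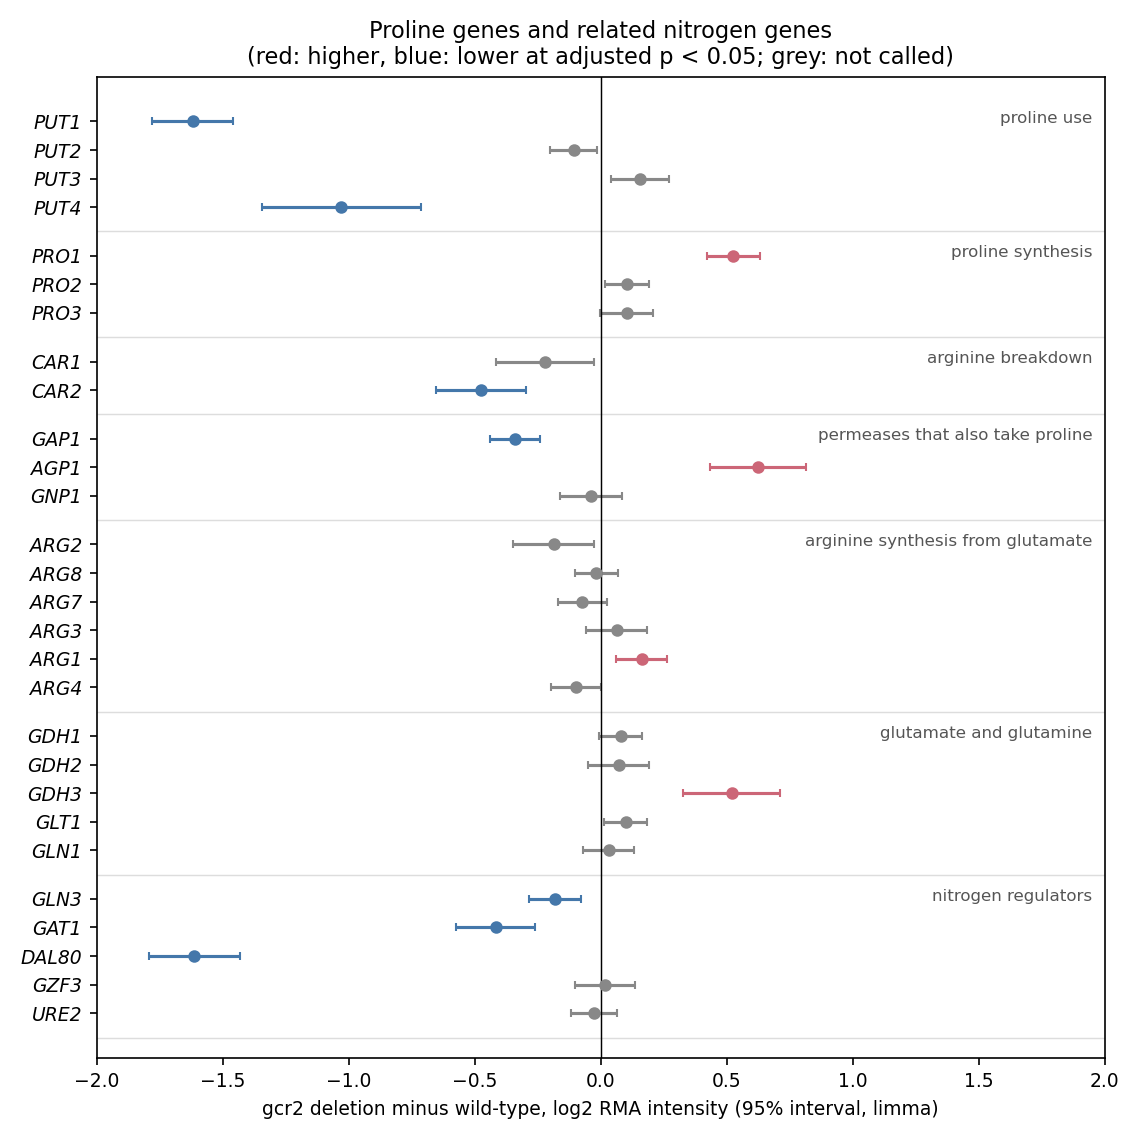
Differences between gcr2 deletion and wild-type on the log2 scale, with 95% intervals of limma, for the proline genes and 5 sets of related genes (21 genes); red and blue mark called genes, grey the others. PUT1, PUT4 and DAL80 stand at -1.0 or lower, PRO1, AGP1 and GDH3 stand above 0.5, and most genes of arginine synthesis and of glutamate metabolism lie near 0.

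The genes whose pattern came closest to that of PUT1 over the 6 arrays, each taken relative to its own wild-type mean, were SPS4, DAL80 and DAL4. Their root mean square distances from PUT1 were 0.07, 0.11 and 0.19 log2 units. With wild-type means set to 0, such a distance largely restates the size of the difference between the groups. That difference was -1.63, -1.61 and -1.37 for these genes beside -1.62 for PUT1. SPS4, a gene induced in sporulation, read 10.65, 10.66 and 10.85 in wild-type and 9.09, 9.07 and 9.10 in the deletion. Closest to PRO1 were YPR1, an aldo-keto reductase gene, LAP3, an aminopeptidase gene, and SPO22, a meiosis gene, at distances of 0.05, 0.05 and 0.05. They differed between the groups by 0.54, 0.53 and 0.49, as against 0.53 for PRO1.

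As a check of the cultures, genes of both mating types were read. STE2, the receptor gene of mating type a cells, was bright in both groups, at 14.16 ± 0.07 and 14.23 ± 0.01 (SD, n = 3), and STE3, the receptor gene of mating type alpha, rose from 7.53 ± 0.06 to 8.44 ± 0.07 (limma adjusted p = 0.0005). Of 6 genes of type a, ASG7 and BAR1 rose (0.74 and 0.22, not called in 5 and 11 of 16 alternatives). Of 4 genes of type alpha STE3 rose. The others of both types were not called, and 14.1% of all tested genes were higher. In each of the 2 lists 2 genes lay below 0, with a median difference of 0.04 for type a and 0.01 for type alpha. In such bulk cultures, fewer cells with a transcript and less transcript per cell cannot be told apart. The part of these genes' differences in those of the proline genes was not tested.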

How the data were processed

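The authors deposited probe-set intensities on a linear scale for 10928 probe sets of 6 Affymetrix yeast arrays, made with R 2.8.0, affy and RMA per the submitters' processing notes. RMA equalises the arrays' distributions, so a change in total messenger RNA is not visible. No genome build is named in the labels.

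Here log2 was taken, without pseudocount or further scaling. The annotation gave 7244 probe sets 1 gene, and 5498 matched the RefSeq table of assembly R64 by gene identifier, leaving 5449 genes. Background was the 95th percentile of 1746 probe sets of the other yeast species on the array, at an intensity of 69.6 to 97.1 per array. Probe sets of that species named put4 and pro1 were under it on all 6 arrays. GCR2's bound uses each array's background.

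The groups were compared with limma 3.58.1 in R 4.3.3 (lmFit, eBayes, no covariates, two-sided) over all genes, tested on simulated data. Precision is limited by the number of arrays, with 95% intervals that reached 0.15 to either side for the median gene. The members and lists were chosen with earlier results of these data known. Besides all members and lists of related genes, the naming rule takes the 4 nitrogen-repressed genes with the smallest adjusted p and the 3 nearest profiles of PUT1 and PRO1; genes outside it are said to be named after their values were seen. ARG5,6 and DUR1,2 were not analysed here. Replicates sharing a number did not deviate together in every pair (r = 0.53, -0.17 and -0.44), so the numbers were not taken to pair samples. Between arrays of unlike number r ran from -0.66 (wild-type 1, deletion 2) to 0.58 (wild-type 3, deletion 2), with 0.49 for wild-type 2 and deletion 3. Preparation shared under another numbering was not tested.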

Additional observations from a re-analysis of the deposited data

How the results depend on the processing

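Without poly-A centring, 16 alternatives left PUT1, PUT4 and PRO1 called in the same direction, with ranges of -1.66 to -1.56, -1.13 to -0.87 and 0.50 to 0.56, and left PRO3 uncalled (0.07 to 0.13). Some of these could change only the tests or calls of the members and not their differences. They were the replicate block, averaged probe sets, dim genes left out, the trended robust prior, the unmoderated statistic and the stricter threshold. Calls were gained by PUT2 (-0.11, unmoderated statistic), PUT3 (0.17, array weights) and PRO2 (0.10, unmoderated statistic and trended robust prior); PRO genes called were then 2 in both settings, and proline genes called 5 with the unmoderated statistic. With the replicate number as a block 733 of all tested genes were called, and none of the 7 members changed its call. Of all tested genes, 406 to 1225 were called when single arrays were left out, 347 at an adjusted p under 0.01, and 328 without both outer arrays, a setting chosen after seeing the data that called 10 genes of the related lists. The 406 were without deletion replicate 3; without deletion replicates 1 and 2 and wild-type replicate 1 there were 483, 543 and 786. For 39 other named genes 567 of 624 values in the 16 alternatives kept direction and call, 46 lost the call, 7 gained one and 4 changed sign. The last were GZF3 and GNP1, which were called in none of the 16 and changed sign when single arrays were left out, with ranges of -0.0208 to 0.0420 and -0.0685 to 0.00626; GZF3 was -0.0044 under quantile normalization and -0.0074 with array weights. Centring on the poly-A controls, also chosen after seeing the data, adds 0.88 to every gene and gives all genes the error of that shift, so it was read as values with no calls. PUT1 was then at -0.74, PUT2 at 0.77, PUT3 at 1.03, PUT4 at -0.15, PRO1 at 1.40, PRO2 and PRO3 at 0.98 each, and GCR2 at -5.64. Called falls of the related lists that changed sign were CAR2 (0.40), GAP1 (0.54), GLN3 (0.70) and GAT1 (0.46). DAL3 and DAL7, named after their values were seen, did so too, from differences of -0.49 and -0.82 before the shift. DAL80, SPS4, DAL4, DAL5, ICS2, ADR1, GCR1 and DAL1 stayed below 0, from -0.76 to -0.07. Dim signal did not limit the members, all above background on 6 arrays.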

Other observations

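The profiles closest to that of PUT4 over the 6 arrays, named after their values were seen, were ADR1, an activator of genes for growth without glucose, GCR1, the partner of GCR2, and ICS2, at root mean square distances of 0.10, 0.16 and 0.16 log2 units. They differed by -1.04, -0.95 and -1.18 beside -1.03 for PUT4, and the distances largely restate these differences.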
